A study of Mus musculus with 12 samples.

Results

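CMA was compared with its solvent DMSO in WT T cells, in 3 libraries for each treatment, which are 6 of the 12 libraries of the series. The members of the comparison were taken from the sample titles, without use of any measured value. T cells of the CD4+ lineage were sorted as naive cells from the spleens of adult C57BL/6 mice, stimulated through CD3 and CD28 with antibodies for 2 days and then left to rest for 1 day. They were then kept for 16 h with DMSO or with 10-carboxymethyl-9-acridanone (CMA), a small cell-permeable compound that binds and activates mouse STING. The other 6 libraries came from T cells of STINGgt/gt mice, also C57BL/6, which carry a missense mutation of the STING gene that leaves no functional protein, and received the same 2 treatments. All 4 groups share this earlier activation, so that the cells with DMSO were recently activated rather than naive. Polyadenylated RNA was sequenced, and reads were counted per Ensembl gene. WT libraries held 27414450 to 41791903 counted reads with DMSO and 32524234 to 36667868 with CMA.

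STING is an adaptor protein of the endoplasmic reticulum that responds to cyclic dinucleotides and passes the signal to the kinase TBK1, to the transcription factor IRF3 and to NF-κB. It is best known for the induction of interferon genes and, in T cells, has been linked to cell death. An activated T cell, for its part, runs a growth programme: it imports amino acids and glucose, builds ribosomes and nucleotides, and enlarges its mitochondria before it divides. When this activity ends, T cells regain receptors for lymph node homing and survival cytokines. Which of these programmes changed with CMA, beyond interferon genes, is the question addressed here.

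Levels are given as normalized CPM, the share of a library's counted reads that fall on a gene, after scaling by edgeR's TMM factors. A gene was called higher or lower at an adjusted p under 0.05 in edgeR's quasi-likelihood test, and differences are log2 fold changes of CMA against DMSO. In WT T cells 4560 of 13811 genes tested were higher with CMA (33.0%) and 5168 were lower (37.4%), so that a list of genes has to be read against a background in which most genes passed the test. The median log2 fold change over all genes tested was -0.04, and a change of at least 2-fold was reached by 1287 higher genes (9.32%) and by 1061 lower genes (7.68%). Large rises were more numerous than large falls. At a threshold of 8-fold there were 214 higher and 77 lower genes, and at 32-fold 83 higher and 5 lower genes. Genes linked to interferon (259 on the list, 213 tested, 190 higher) made up 11.6% of the genes that rose at least 2-fold and 26.5% of those that rose at least 32-fold, which leaves 1138 and 61 genes outside that list. Of the 83 genes past 32-fold, 43 had 3 or fewer reads in each DMSO library, and the 5 lower genes had 3 or fewer in each CMA library. Their fitted folds depend on the handling of counts near 0, and levels are given for such genes instead. No RNA was added as a standard, so that all values are shares of the RNA in a library. Fewer cells of a type and less RNA per cell cannot be told apart in such bulk samples.

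**Figure D1:**
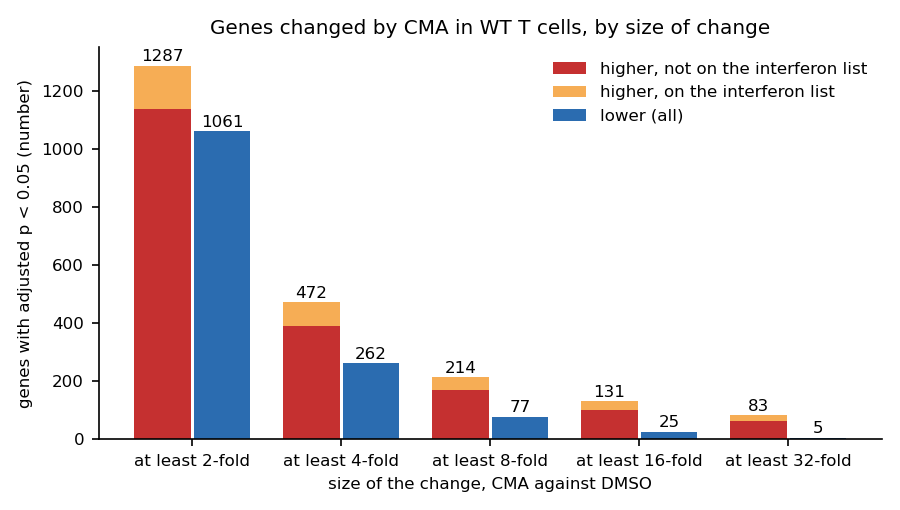
Number of genes with an adjusted p under 0.05 (vertical axis) that changed by at least 2, 4, 8, 16 or 32-fold between CMA and DMSO in WT T cells; red and orange bars are higher genes outside and on the interferon list, stacked, and blue bars are all lower genes. Higher and lower genes are similar in number at 2-fold (1287 and 1061), while at 32-fold 83 genes are higher and 5 lower.

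Several features of the libraries moved with the treatment. Reads outside annotated genes made up 4.86% to 5.47% of all entries with DMSO and 6.79% to 7.16% with CMA, without overlap, and 5.98% to 6.54% in the libraries of STINGgt/gt T cells. When genes were divided into 4 equal classes by summed exon length, 40.6% of the longest class were higher and 33.9% lower, against 25.6% and 34.4% of the shortest. Between the DMSO libraries, replicate 2 held less RNA of the longest class than the others (median deviations from the DMSO mean, on the log2 scale, of 0.015, -0.07 and 0.06), and without it 38.3% of that class were higher and 37.7% lower. Markers of CD4 T cells were abundant: the 7 markers summed to 2294 to 2508 normalized CPM with DMSO and 2156 to 2193 with CMA. B-cell markers were also present, at 897, 973 and 964 summed normalized CPM with DMSO against 1281, 1331 and 1406 with CMA, and 5 of the 7 were higher. Ms4a1 went from 26.6, 25.2 and 28.2 to 57.5, 55.2 and 61.0, whereas Ighm had 456, 502 and 523 normalized CPM with DMSO and 456, 465 and 519 with CMA. Of 119 immunoglobulin variable genes tested, 44 were higher and 12 lower. The 10 markers of myeloid and dendritic cells summed to 56.2 to 59.8 with DMSO and 72.7 to 79.3 with CMA, mostly from Cst3 and Flt3, but only these 2 of the 8 tested were higher, and Lyz2, Itgam, Itgax and Fcgr3 were lower. Itgax went from 1.31, 1.14 and 1.24 to 0.474, 0.339 and 0.347 and Fcgr3 from 0.947, 1.04 and 1.10 to 0.586, 0.463 and 0.567, and Siglech was at 0 in each of the 6 libraries. Markers of CD8 T and natural killer cells summed to 75.9 to 81.5 with DMSO and 66.5 to 70.4 with CMA, and those of erythroid cells to at most 3.12. Among the genes named here, exons of Mrps6, Rpl3, Rpl4 and Rpsa overlap another counted gene on the same strand, and those of Aire, Atf5, Ccl25, Ccl27a, Ccnd2, Cdk4, Cxcl16, Fosl1, Hspd1, Il12rb2, Itga4, Jun, Jund, Mrpl14, Mxd3, Nfkb2, Rb1 and Srebf1 one on the opposite strand, so that part of their reads may be shared with a neighbour.

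Ribosome biogenesis was among the deepest falls. It is the assembly line on which ribosomal RNA is transcribed, cut, modified and joined with proteins. Of 50 members of the list tested, 43 fell and 4 rose, and the median log2 fold change was -0.77. In the 3 CMA libraries the median member lay at -0.70, -0.77 and -0.76 relative to the DMSO mean on the log2 scale. Rrp12, a factor in ribosomal RNA processing (chromosome 19, 41862852 to 41896153 of GRCm38), had 60.6, 64.8 and 63.2 normalized CPM with DMSO and 19.5, 18.02 and 19.7 with CMA. The groups did not overlap, and the mean went from 62.9 ± 2.13 to 19.1 ± 0.914 (SD, n = 3; log2 fold change -1.72, standard error 0.0499, adjusted p = 2.59e-14, edgeR). Npm1, the most abundant member and a histone and ribosome chaperone of the nucleolus, stood at 2786, 2784 and 3078 normalized CPM with DMSO and 1774, 1647 and 1844 with CMA (log2 fold change -0.72, adjusted p = 2.38e-08, edgeR). All 3 CMA libraries were below all 3 DMSO libraries for both genes. Together the list took 1.03% ± 0.0431 of the reads on genes with DMSO, against 0.701% ± 0.0102 in the CMA libraries (SD, n = 3).

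The list joins ribosome biogenesis factors with Myc, the transcription factor that drives them in growing cells, and with partners of Myc in the MAX network. Split by these roles after the values were seen, 42 of 43 biogenesis factors fell and none rose, with Imp4 not called. The 4 members that rose were all in the network. Myc itself had 329, 326 and 297 normalized CPM with DMSO and 486, 524 and 483 with CMA (log2 fold change 0.65, adjusted p = 2.17e-08, edgeR), higher in every CMA library. Mxd1, which pairs with MAX and represses genes that Myc activates (chromosome 6, 86647044 to 86669159), rose from 114, 114 and 119 to 577, 594 and 554 (log2 fold change 2.31, standard error 0.0471, adjusted p = 3.90e-16, edgeR). Mxi1 (log2 fold change 0.79, adjusted p = 4.42e-11, edgeR) and Mxd4 (log2 fold change 0.77, adjusted p = 1.36e-08, edgeR), repressors of the same type, rose as well. Mycn fell (log2 fold change -1.06, adjusted p = 0.000874, edgeR), and Max and Mxd3 had log2 fold changes of 0.03 and 0.02 without a call. The mRNA of Myc and those of 42 biogenesis factors therefore moved in opposite directions.

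Genes for the protein synthesis machinery fell with smaller steps and few exceptions. Of 79 cytosolic ribosomal proteins 74 fell and none rose, with a median of -0.32 (log2), and they took 8.41% ± 0.486 of the reads on genes with DMSO, against 6.49% ± 0.0659 in the CMA libraries (SD, n = 3). Rpl3, of the large subunit, went from 2543, 2718 and 2500 to 1616, 1610 and 1623 normalized CPM (log2 fold change -0.68, adjusted p = 4.22e-10, edgeR), the largest fall of the list. Rpl4 went from 4557, 4749 and 4555 to 3379, 3349 and 3333 (log2 fold change -0.46, adjusted p = 3.45e-08, edgeR). Among translation factors 38 of 42 fell and 1 rose, with a median of -0.43. Eef1a1, the elongation factor that brings tRNA to the ribosome and the most abundant of these mRNAs, had 16000, 15720 and 15590 normalized CPM with DMSO and 12390, 12270 and 12510 with CMA (log2 fold change -0.35, adjusted p = 1.18e-06, edgeR). Eif4b, a cofactor of the initiation helicase, fell further, from 1106, 1042 and 1120 to 492, 474 and 493 (log2 fold change -1.16, standard error 0.0409, adjusted p = 2.83e-13, edgeR). Eif2b3, a subunit of the exchange factor for eIF2, had the largest fall (log2 fold change -1.28, adjusted p = 3.65e-11, edgeR). The member that rose was Pabpc1, the cytoplasmic poly(A)-binding protein, at 3001, 2824 and 3048 normalized CPM with DMSO and 3895, 3951 and 4064 with CMA (log2 fold change 0.42, adjusted p = 8.13e-08, edgeR). Aminoacyl-tRNA synthetases, which load amino acids onto tRNA, fell in 18 of 20 cases (median -0.51), led by Farsb, from 139, 139 and 147 to 65.2, 64.4 and 65.2 (log2 fold change -1.13, adjusted p = 7.93e-13, edgeR). Wars, also an interferon-inducible gene, rose (log2 fold change 0.23, adjusted p = 7.17e-05, edgeR).

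Enzymes that make nucleotides fell as deeply as ribosome biogenesis. All 27 members passed the test, 26 of them lower, 9 by at least 2-fold, and the median was -0.77 (log2). The members took 0.439% ± 0.00500 of the reads on genes with DMSO, against 0.261% ± 0.000376 in the CMA libraries (SD, n = 3). Nme1, a nucleoside diphosphate kinase (chromosome 11, 93956979 to 93968521), had 60.9, 66.5 and 62.5 normalized CPM with DMSO and 17.2, 17.4 and 17.5 with CMA (log2 fold change -1.87, standard error 0.0526, adjusted p = 1.93e-14, edgeR). Shmt2, the mitochondrial serine hydroxymethyltransferase that feeds one-carbon units into purines and the most abundant member, went from 412, 439.5 and 394 to 248, 252 and 248 (log2 fold change -0.74, adjusted p = 7.05e-10, edgeR). Enzymes of both branches were among the 9, with Gart for purine synthesis (log2 fold change -1.46, adjusted p = 2.25e-14, edgeR). Dhodh (log2 fold change -1.35, adjusted p = 1.06e-10, edgeR) and Cad (log2 fold change -1.20, adjusted p = 9.94e-13, edgeR) stand for pyrimidine synthesis. The exception was Ctps2 (log2 fold change 0.20, adjusted p = 0.000548, edgeR), a CTP synthase whose paralogue Ctps fell (log2 fold change -1.23, adjusted p = 1.12e-12, edgeR).

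**Figure D2:**
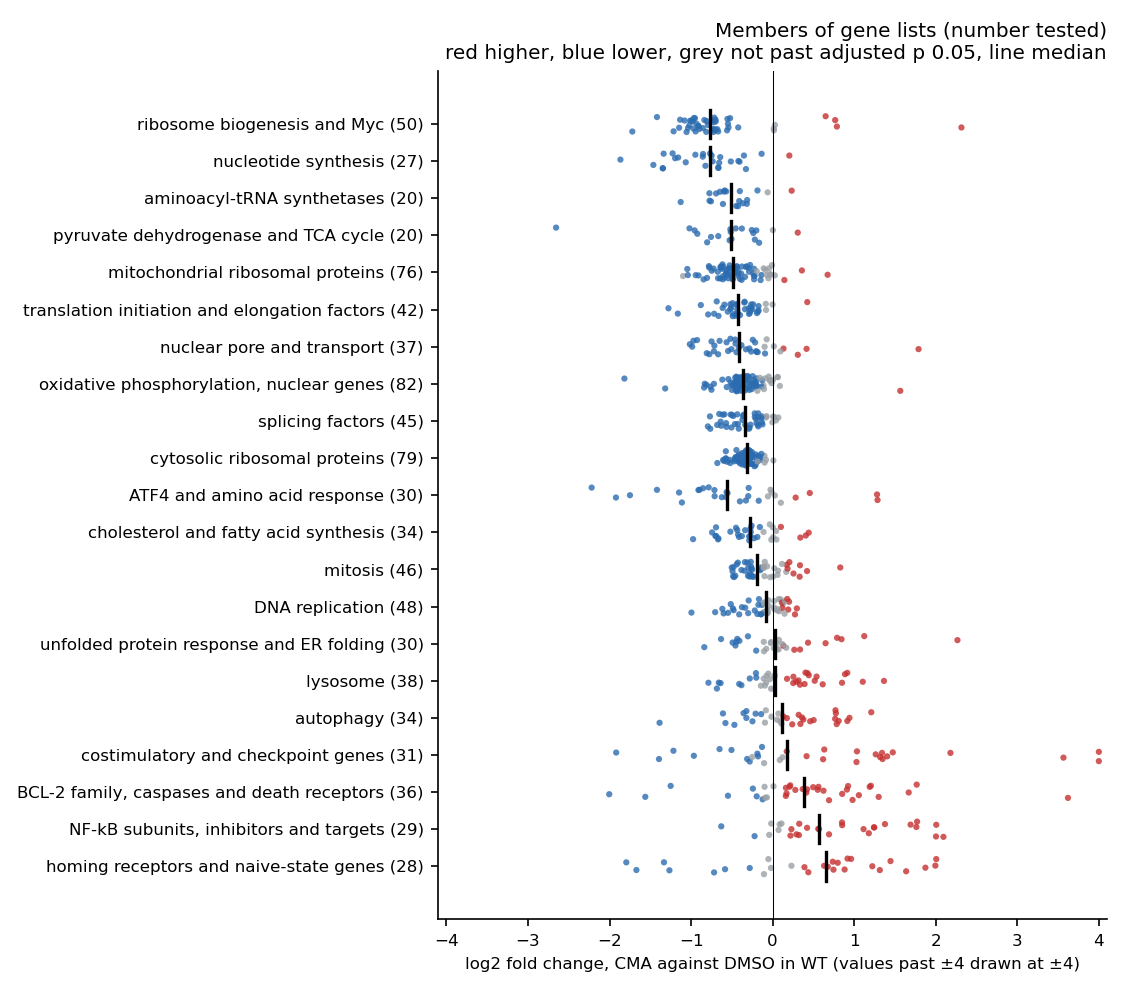
Log2 fold change of CMA against DMSO in WT T cells (horizontal axis) for each tested member of 21 gene lists (rows, number of members in brackets); red points are higher and blue points lower at an adjusted p under 0.05, grey points were not called, and the black line is the list's median; values past 4 are drawn at 4. Members of the growth lists in the upper rows lie almost all left of 0, with medians down to -0.77, DNA replication and mitosis lie near 0, and the NF-kB and homing lists lie right of 0 with medians of 0.57 and 0.65.

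Most mitochondrial genes encoded in the nucleus fell. Of 76 mitochondrial ribosomal proteins 62 fell (median -0.49) and 3 rose, which were Mrpl14, Mrps6 and Mrpl45, a call that 4 of 13 alternative fits lost for Mrpl45. Mrps27 fell from 45.4, 50.0 and 46.8 to 24.3, 24.7 and 24.9 (log2 fold change -0.94, adjusted p = 2.49e-11, edgeR). For respiratory chain subunits encoded in the nucleus 68 of 82 fell (median -0.36) and 1 rose, the testis-type subunit Cox6b2. Atp5b, the catalytic subunit of ATP synthase, went from 1416, 1481 and 1472 to 1191, 1200 and 1186 (log2 fold change -0.29, adjusted p = 4.19e-06, edgeR). Of the pyruvate dehydrogenase and TCA cycle list 18 of 20 fell, with a median of -0.51. Pcx, pyruvate carboxylase (chromosome 19, 4510472 to 4621752), was far below the others at 71.8, 71.8 and 61.1 normalized CPM with DMSO and 10.4, 11.3 and 10.8 with CMA (log2 fold change -2.66, standard error 0.0705, adjusted p = 9.51e-15, edgeR). Citrate synthase Cs went from 529, 539 and 531 to 378, 373 and 368 (log2 fold change -0.51, adjusted p = 3.57e-09, edgeR). Idh2 was the member that rose (log2 fold change 0.31, adjusted p = 3.92e-06, edgeR). The 7 tested genes of the mitochondrial genome gave 2 higher, mt-Nd4 and mt-Cytb, and none lower. Their values in the DMSO libraries were uneven, with mt-Co1 at 2400, 4028 and 2142 normalized CPM with DMSO and 3788, 3523 and 3667 with CMA (adjusted p = 0.0542, edgeR). Without DMSO replicate 2, the high library, 6 of the 7 were higher.

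Genes of fuel use and amino acid supply leaned the same way. In glycolysis and the pentose phosphate pathway 20 of 31 members fell and 6 rose (median -0.28). The glucose transporter Slc2a3 had 1633, 1577 and 1609 normalized CPM with DMSO and 804, 843 and 936 with CMA (log2 fold change -0.90, adjusted p = 1.14e-09, edgeR). Pkm and Ldha carry out the last steps to lactate. Pkm went from 4635, 4769 and 4610 to 3530, 3640 and 3716 (log2 fold change -0.36, adjusted p = 3.57e-07, edgeR). Ldha went from 3817, 3836 and 3789 to 2898, 2907 and 2905 (log2 fold change -0.39, adjusted p = 5.13e-08, edgeR), again without overlap. Pgd of the pentose phosphate pathway rose, from 155, 156 and 154 to 216, 218 and 217 (log2 fold change 0.48, adjusted p = 3.78e-09, edgeR). In the ATF4 list, which holds targets of the amino acid response, 21 of 30 fell and 4 rose (median -0.56). Slc7a5, the importer of large neutral amino acids (chromosome 8, 121881150 to 121907694), stood at 490.4, 501 and 499.8 normalized CPM with DMSO and 224, 228 and 221 with CMA (log2 fold change -1.15, standard error 0.0423, adjusted p = 5.18e-13, edgeR). Asns (log2 fold change -1.75, adjusted p = 3.53e-12, edgeR) and Phgdh (log2 fold change -1.42, adjusted p = 4.57e-12, edgeR), enzymes of asparagine and serine synthesis, fell further. The 4 that rose were Atf5, Slc38a2 and the stress factors Atf3, from 67.9, 68.4 and 62.6 to 164, 164 and 157 (log2 fold change 1.29, adjusted p = 2.24e-12, edgeR), and Ppp1r15a (log2 fold change 1.28, adjusted p = 4.17e-12, edgeR). Of all 214 solute carriers tested 100 fell (46.7%) and 66 rose (30.8%), 31 and 14 of them by at least 2-fold. Over all genes tested 37.4% fell and 33.0% rose, so solute carriers as a class were not far from that background.

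Cholesterol and fatty acid genes moved less, with 23 of 34 lower and 4 higher (median -0.27). Lss, which closes the sterol rings, fell from 175, 164 and 153 to 84.1, 82.7 and 83.3 (log2 fold change -0.98, adjusted p = 2.03e-11, edgeR). The fatty acid synthase Fasn rose from 413, 400.3 and 430.5 to 558, 569 and 563 (log2 fold change 0.44, adjusted p = 1.58e-07, edgeR), as did Fads2 and Srebf1 by less. Other housekeeping machinery fell by similar steps. The counts were 38 of 45 splicing factors (median -0.34), 26 of 32 constitutive proteasome subunits (-0.29), 29 of 37 nuclear pore and transport genes (-0.42), 17 of 27 chaperones (-0.28) and 16 of 23 NRF2 and redox genes (-0.31). Among chaperones inducible and constitutive HSP70 genes rose, with Hspa1b from 6.19, 7.35 and 6.49 to 32.7, 32.5 and 30.5 (log2 fold change 2.26, adjusted p = 1.34e-12, edgeR) and Hspa8 from 2517, 2587 and 2627 to 3326, 3307 and 3483 (log2 fold change 0.39, adjusted p = 1.75e-06, edgeR). Hspd1, the mitochondrial HSP60, fell from 769, 778 and 887 to 444, 399.9 and 426 (log2 fold change -0.94, adjusted p = 1.16e-09, edgeR). Lysosome genes had 18 higher and 9 lower of 38, and autophagy genes 17 and 10 of 34, with medians of 0.02 and 0.12. Npc2, which carries cholesterol out of the lysosome, was their largest rise, from 651, 700.2 and 665 to 1723, 1711 and 1757 (log2 fold change 1.36, adjusted p = 2.87e-14, edgeR). Genes of the unfolded protein response split evenly, 9 higher and 9 lower of 30 (30.0% each, median 0.03), near the shares of all genes tested. Derl3, of the degradation machinery of the endoplasmic reticulum, rose from 1.64, 2.15 and 1.78 to 8.37, 8.30 and 10.2 (log2 fold change 2.27, adjusted p = 4.94e-10, edgeR). The transcription factor Xbp1 fell (log2 fold change -0.63, adjusted p = 1.72e-09, edgeR).

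Genes of the cell cycle moved less. Of 48 DNA replication genes 21 fell and 7 rose, none by 2-fold, and the median was -0.08, close to the -0.04 of all genes. The number that rose was 13 without DMSO replicate 3. The median of the list in the CMA libraries was -0.08, -0.09 and -0.05 relative to the DMSO mean, and in the DMSO libraries -0.04, -0.01 and 0.06, a spread of similar size. Mcm6, of the replicative helicase, had 468, 470.1 and 523 normalized CPM with DMSO and 464, 439.8 and 471 with CMA (log2 fold change -0.09, adjusted p = 0.108, edgeR), with overlapping groups. Dut, which removes dUTP, had the largest fall, from 158, 169 and 178 to 84.2, 82.0 and 87.0 (log2 fold change -0.996, adjusted p = 5.25e-11, edgeR). Mitosis genes were lower in 25 of 46 cases and higher in 8 (median -0.19), again with none at 2-fold. Top2a, the most abundant, had 1264, 1180 and 1470 normalized CPM with DMSO and 1186, 1130 and 1234 with CMA (log2 fold change -0.14, adjusted p = 0.0602, edgeR). Mki67, the source of the proliferation antigen Ki-67, went from 761, 733 and 894 to 990.5, 927 and 1087 (log2 fold change 0.33, adjusted p = 0.000741, edgeR). Pttg1, which codes for securin, rose from 17.6, 17.1 and 17.2 to 30.5, 32.4 and 29.3 (log2 fold change 0.83, adjusted p = 3.73e-09, edgeR). In the G1 list 10 of 24 rose and 4 fell, which were E2f4, Cdkn2c, Cdk4 and Rb1. Ccnd2, the main D-type cyclin in these libraries, went from 859.5, 774 and 872 to 1835, 1863 and 1752 (log2 fold change 1.12, adjusted p = 2.90e-12, edgeR). Ccne1, which codes for cyclin E, rose from 61.8, 64.4 and 64.9 to 141, 139 and 141 (log2 fold change 1.14, adjusted p = 3.43e-13, edgeR). E2f4 fell from 211, 223 and 209.6 to 129, 136 and 128 (log2 fold change -0.71, adjusted p = 2.84e-10, edgeR). Of 48 repair genes 21 fell and 12 rose. The checkpoint kinase Atm had 102, 71.9 and 120.2 normalized CPM with DMSO and 415, 387 and 440.5 with CMA (log2 fold change 2.08, adjusted p = 2.68e-10, edgeR). Replication-dependent histone mRNAs, which lack a poly(A) tail and are poorly captured here, took 0.00277% of the reads with DMSO. Of the 22 tested 16 were lower and 4 higher, but 2 and 2 when at least 10 reads were required in every library.

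Outside the interferon list, NF-κB genes had the highest share of members that rose. Of 29 tested 22 rose, 11 of them by at least 2-fold, and Tnfrsf1b and Chuk fell (median 0.57, with the CMA libraries at 0.66, 0.58 and 0.56). Its 3 largest rises were inhibitors that NF-κB itself induces. Tnfaip3, the ubiquitin editor A20 (chromosome 10, 19000910 to 19015657), had 158, 154 and 165 normalized CPM with DMSO and 642, 635 and 635 with CMA (log2 fold change 2.00, standard error 0.0405, adjusted p = 3.65e-16, edgeR). Nfkbie, which codes for IκBε, rose from 49.2, 50.5 and 44.1 to 209, 205 and 198 (log2 fold change 2.09, adjusted p = 2.78e-15, edgeR). Nfkbia, which codes for IκBα, rose likewise (log2 fold change 2.01, adjusted p = 6.20e-15, edgeR). Of the subunits, Nfkb2 of the non-canonical arm rose from 312, 311 and 283 to 1062, 1038 and 994 (log2 fold change 1.77, adjusted p = 5.08e-14, edgeR). Relb, its partner, rose too (log2 fold change 1.24, adjusted p = 7.55e-12, edgeR). Nfkb1, the most abundant member, had 795, 748 and 773 normalized CPM with DMSO and 755, 760.5 and 734 with CMA (log2 fold change -0.04, adjusted p = 0.337, edgeR). Tnfrsf1b, the second TNF receptor, fell from 91.1, 89.3 and 90.8 to 56.2, 58.5 and 60.5 (log2 fold change -0.63, adjusted p = 1.02e-09, edgeR). Factors of the antigen receptor response did not share this direction. Of 15 NFAT, EGR and NR4A genes 5 rose and 6 fell (33.3% and 40.0%), near the 33.0% and 37.4% of all genes tested. Of 13 AP-1 genes 5 rose (Fosb, Jun, Fos, Atf3 and Jund) and 3 fell (Fosl1, Batf3 and Fosl2), which is 38.5% and 23.1%. Egr2 dropped from 55.1, 52.1 and 54.4 to 11.7, 12.3 and 10.5 (log2 fold change -2.23, adjusted p = 6.27e-14, edgeR), without overlap. Jun rose from 69.8, 72.6 and 67.8 to 226, 222 and 218 (log2 fold change 1.66, adjusted p = 8.92e-15, edgeR).

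Promoter sequence was set beside these groups, taken from RefSeq for GRCm38.p6 as the 250 bases before the start. Letters were searched on both strands, and a match is a description of the letters only. A gene with several RefSeq starts counted as holding a motif if any of its promoters held it. The NF-κB motif GGGNNTTCC was in 33.3% of 24 NF-κB list promoters, in 7.59% of the 9695 tested genes with a promoter and in 5.61% of all 27025 genes of the table. The Myc E-box CACGTG was in 9.09% of 44 ribosome biogenesis and Myc promoters, in 9.71% of tested genes, in 10.3% of lower genes and in 8.46% of higher genes. It was in 16.7% of 24 nucleotide synthesis promoters and 6.86% of all. The E2F motif TTTNNCGC was in 23.1% of 39 DNA replication promoters, against 8.25% of tested genes and 4.94% of all. The sterol motif TCACNCCAC was in 1 of 23 cholesterol and fatty acid promoters (4.35%), that of Hmgcs1, against 1.24% and 1.22%. A share that rests on 1 or 2 promoters cannot be told apart from these background shares. The CCAAT box, spelled CCAAT, was in 64.1% of replication and 71.1% of 38 mitosis promoters, against 40.6% and 37.5%. These lists were not alone, as it was in 78.3% of cholesterol and fatty acid and 57.7% of ATF4 list promoters. In ribosome biogenesis and Myc promoters its share was 31.8%. The CHR motif TTTGAA was in 42.1% of mitosis promoters, against 12.5% and 18.3%. The ATF4 motif TGATGNAAT was in 2 of 26 ATF4 list promoters (7.69%), against 0.444% and 0.91%. The AP-1 motif TGANTCA was in 20.8% of NF-κB list promoters, against 5.29% and 7.82%. The CRE TGACGTCA was in 1 of these 24 (4.17%), against 3.03% and 1.77%. Motifs were counted separately and can share letters. For 4 of the lists (NF-κB with its motif, ribosome biogenesis and Myc with the E-box, DNA replication with E2F, cholesterol and fatty acid synthesis with the sterol motif), the called member with the smallest adjusted p that holds it is shown, 5′ to 3′ in the direction of the gene, with the motif in capitals. For each gene the first RefSeq promoter with a match was taken. These sequences show where the searched letters lie, 3 bases before that RefSeq start in Tnfaip3, 19 in Orc1, 54 in Nop2 and 128 in Hmgcs1. Their positions are chr10:19015411-19015482 on the minus strand (Tnfaip3), chr6:125131763-125131882 on the plus strand (Nop2), chr4:108579367-108579453 on the plus strand (Orc1) and chr13:119690154-119690282 on the plus strand (Hmgcs1). The Tnfaip3 stretch lies inside the gene span given above, so the RefSeq start used is not the outer end of that span.
Tnfaip3: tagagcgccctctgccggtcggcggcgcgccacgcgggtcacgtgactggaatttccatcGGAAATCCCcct
Nop2: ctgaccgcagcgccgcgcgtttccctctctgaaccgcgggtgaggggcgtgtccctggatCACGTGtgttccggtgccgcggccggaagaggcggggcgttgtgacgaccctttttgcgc
Orc1: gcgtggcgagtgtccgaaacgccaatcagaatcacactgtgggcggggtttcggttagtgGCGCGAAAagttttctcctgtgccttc
Hmgcs1: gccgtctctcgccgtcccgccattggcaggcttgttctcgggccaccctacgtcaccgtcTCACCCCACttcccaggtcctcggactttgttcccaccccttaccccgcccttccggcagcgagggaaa

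Of these 4 genes Tnfaip3 rose and 3 fell. Nop2, an RNA methyltransferase of ribosome biogenesis, fell from 99.9, 108 and 110.5 to 65.2, 63.2 and 64.0 (log2 fold change -0.73, adjusted p = 2.82e-10, edgeR). Orc1, of the origin recognition complex, fell from 36.6, 37.7 and 42.7 to 26.5, 26.6 and 27.2 (log2 fold change -0.55, adjusted p = 2.60e-07, edgeR). Hmgcs1, which starts the mevalonate pathway, went from 306, 285 and 351 to 276, 272 and 279 (log2 fold change -0.19, adjusted p = 0.0109, edgeR). The ranges of Nop2 and Orc1 did not overlap between treatments, and neither did those of Hmgcs1.

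Receptors for homing and genes of the resting state rose in the majority. Of 28 tested 17 rose and 7 fell, and the median of 0.65 was the highest of the lists outside interferon. Ccr7, the chemokine receptor that guides T cells into lymph nodes (chromosome 11, 99144196 to 99155077), had the largest gain of all genes outside the interferon list, with 567, 599 and 524 normalized CPM with DMSO and 2215, 2287 and 2288 with CMA (log2 fold change 2.01, standard error 0.0493, adjusted p = 3.57e-15, edgeR). Itga4, an integrin chain, rose by a similar factor (log2 fold change 2.00, adjusted p = 3.02e-10, edgeR). From other lists, Il7r, the receptor chain for the survival cytokine IL-7, rose from 69.8, 73.3 and 73.7 to 163, 159.8 and 161 (log2 fold change 1.16, adjusted p = 9.43e-12, edgeR). Tcf7, the transcription factor TCF1 of naive and memory cells, rose from 233, 236 and 265 to 490.4, 494 and 515 (log2 fold change 1.03, adjusted p = 2.04e-11, edgeR). Cxcr3, a receptor for inflamed tissue, rose as well (log2 fold change 0.92, adjusted p = 4.00e-05, edgeR). In the list of lineage and memory factors 17 of 33 rose (51.5%, against 33.0% of all genes) and 11 fell (33.3%, against 37.4%). Rora rose from 29.1, 23.0 and 27.5 to 80.0, 80.5 and 78.5 (log2 fold change 1.59, adjusted p = 2.50e-12, edgeR). Maf fell from 8.81, 9.06 and 11.4 to 3.63, 4.20 and 4.25 (log2 fold change -1.29, adjusted p = 4.69e-08, edgeR). B cells use Ccr7 too, and the B-cell markers rose in the same libraries (from 897 to 973 with DMSO to 1281 to 1406 with CMA in sum). Their part in these rises was not tested.

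Costimulatory and checkpoint genes spread widely, with 16 of 31 higher, 12 of them by at least 2-fold, and 11 lower (median 0.17). These are 51.6% higher and 35.5% lower, the second near the 37.4% of all genes tested. Tnfsf4, the OX40 ligand (chromosome 1, 161395409 to 161418410), had 1.64, 1.41 and 1.63 normalized CPM with DMSO and 159.8, 140.4 and 144 with CMA (log2 fold change 6.56, standard error 0.0838, adjusted p = 1.17e-18, edgeR). Cd80, a ligand of CD28 best known from antigen-presenting cells, rose from 12.3, 10.9 and 9.75 to 135, 126 and 124.9 (log2 fold change 3.57, adjusted p = 1.43e-15, edgeR). Cd70, the ligand of CD27, rose from 0.655, 0.637 and 0.317 to 9.10, 9.10 and 7.28 (log2 fold change 4.04, adjusted p = 7.17e-11, edgeR). Lag3, an inhibitory receptor for MHC class II, had 183, 212 and 193 normalized CPM with DMSO and 884, 908 and 874 with CMA (log2 fold change 2.18, standard error 0.0564, adjusted p = 6.66e-15, edgeR). Cd40lg, the helper ligand for B cells, fell from 49.0, 43.4 and 49.6 to 21.4, 20.9 and 18.8 (log2 fold change -1.22, adjusted p = 1.16e-10, edgeR). Pdcd1, which codes for PD-1, fell from 36.4, 35.8 and 35.0 to 29.0, 32.7 and 26.4 (log2 fold change -0.28, adjusted p = 0.000875, edgeR). Tnfrsf9, the most abundant member, had 963, 987 and 885 normalized CPM with DMSO and 854, 915 and 820.2 with CMA (log2 fold change -0.13, adjusted p = 0.0239, edgeR). Its groups overlapped, and 8 of 13 alternative fits did not keep the call. Proximal antigen receptor genes leaned down, with 18 of 32 lower and 9 higher (median -0.17). Cd3e went from 244, 267 and 246 to 153, 159.6 and 168 (log2 fold change -0.66, adjusted p = 1.72e-09, edgeR). Ubash3a, a negative regulator, fell from 43.8, 45.5 and 47.3 to 16.2, 17.7 and 18.03 (log2 fold change -1.398, adjusted p = 1.31e-12, edgeR).

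**Figure D3:**
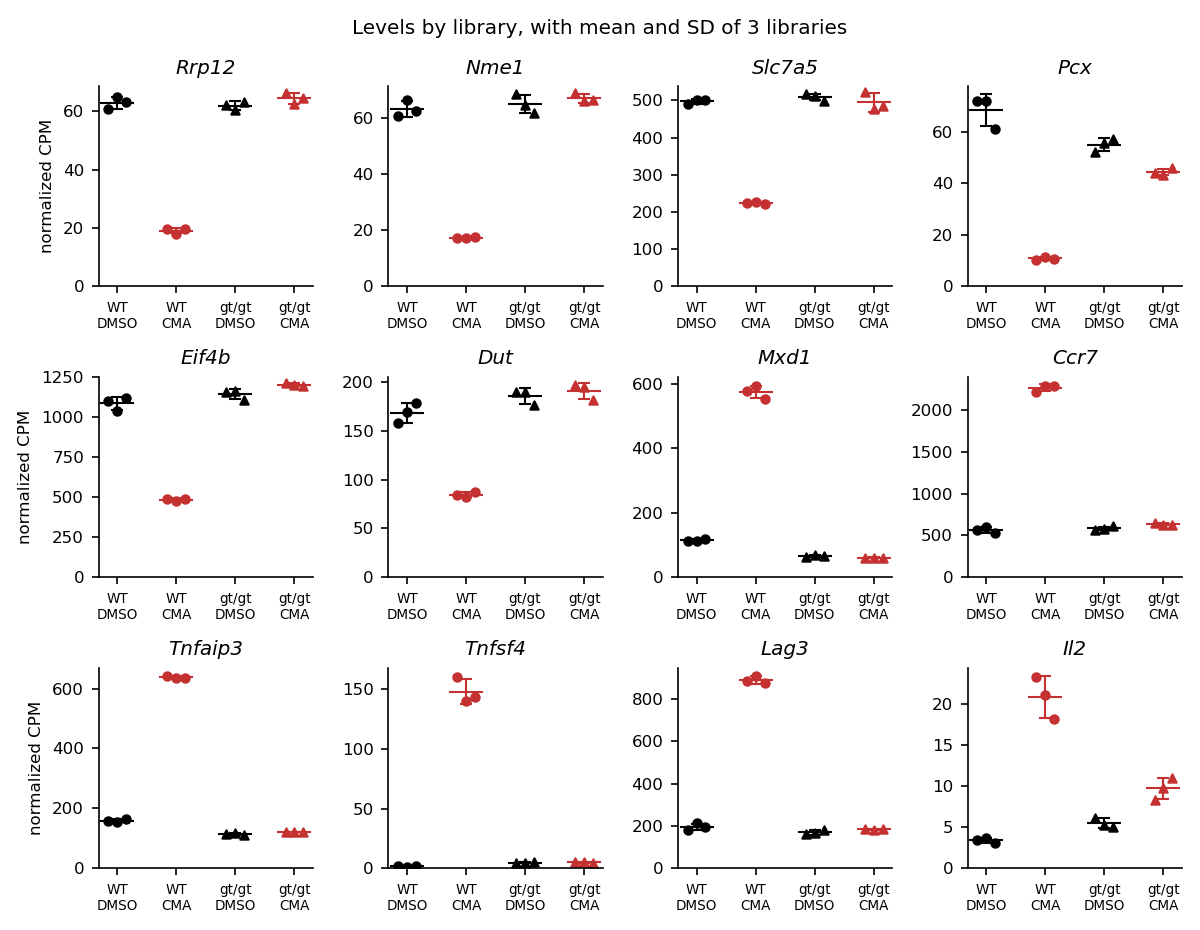
Normalized CPM (vertical axis, linear and starting at 0) of 12 genes in each library; circles are WT and triangles STINGgt/gt (gt/gt), black is DMSO and red CMA, and bars are the mean and SD of 3 libraries. WT CMA stands apart from the other 3 groups in every panel, below them for Rrp12, Nme1, Slc7a5, Pcx, Eif4b and Dut and above them for the other 6 genes.

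Secreted factors moved in both directions. Of 24 T cell cytokine genes 10 rose and 6 fell. Il2, the growth factor of T cells, had 3.46, 3.66 and 3.07 normalized CPM with DMSO and 23.3, 21.1 and 18.2 with CMA (log2 fold change 2.63, standard error 0.124, adjusted p = 1.22e-11, edgeR). Mif, the most abundant, fell from 544, 562 and 478 to 317, 347 and 318 (log2 fold change -0.69, adjusted p = 3.19e-08, edgeR). Tgfb1 fell from 215, 225 and 198 to 104, 114 and 108 (log2 fold change -0.97, adjusted p = 2.39e-10, edgeR). Of 10 chemokines tested 5 rose (Ccl5, Cxcl16, Ccl22, Ccl25 and Ccl4) and 4 fell (Xcl1, Ccl27a, Ccl3 and Ccl6). Their share of reads went from 0.00821% to 0.199%, nearly all through Ccl5, from 9.07, 12.9 and 10.5 to 1894, 1938 and 1965 (log2 fold change 7.48, adjusted p = 7.39e-19, edgeR), also an interferon-inducible gene. Without DMSO replicate 1 the number that rose was 3. In the TGF-β and activin list 14 of 24 rose and 6 fell. Its activin subunits went opposite ways. Inhbb appeared at 33.3, 35.6 and 35.3 normalized CPM with CMA from 0.109, 0.0671 and 0.0975 with DMSO, and Inhba fell from 9.80, 6.24 and 7.46 to 1.59, 1.64 and 1.14 (log2 fold change -2.42, adjusted p = 7.26e-09, edgeR). Granule genes of cytotoxic cells had 6 lower of 11 and 2 higher, Serpinb9 and Srgn. Gzma fell from 36.2, 46.5 and 53.7 to 8.62, 9.53 and 10.7 (log2 fold change -2.25, adjusted p = 4.22e-11, edgeR). Serpinb9, the inhibitor that protects a cell from granzyme B, rose from 89.8, 87.5 and 89.2 to 481, 479 and 449 (log2 fold change 2.402, adjusted p = 6.77e-16, edgeR). Of the 7 markers of natural killer and CD8 T cells 5 fell as well and 1 rose. Eomes went up, from 17.0, 17.3 and 19.7 to 24.6, 25.6 and 29.2 normalized CPM. The part of such cells in the fall of granule genes was not tested.

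Of 36 genes of the BCL-2 family, caspases and death receptors 25 rose and 7 fell (median 0.39). The largest rises were in BH3-only genes, which start apoptosis at mitochondria, with Pmaip1 from 21.8, 22.2 and 23.0 to 284, 273 and 268 (log2 fold change 3.62, adjusted p = 7.14e-18, edgeR). Bbc3 rose from 16.1, 17.9 and 13.4 to 50.7, 55.6 and 53.8 (log2 fold change 1.77, adjusted p = 5.46e-12, edgeR), as did Bcl2l11 (log2 fold change 1.67, adjusted p = 2.79e-14, edgeR). Rises were found on both sides of the pathway, with Apaf1 (log2 fold change 1.204, adjusted p = 3.02e-10, edgeR) on the side of death. On the side of survival, Bcl2l1, which codes for BCL-XL, rose (log2 fold change 0.92, adjusted p = 1.09e-10, edgeR), and so did Birc2, which codes for cIAP1 (log2 fold change 0.98, adjusted p = 1.18e-11, edgeR). Mcl1, the most abundant member, had 459, 464 and 498 normalized CPM with DMSO and 530.2, 524 and 536 with CMA (log2 fold change 0.16, adjusted p = 0.00243, edgeR). The necroptosis kinase Ripk3 fell from 59.0, 68.4 and 54.6 to 14.3, 15.6 and 15.4 (log2 fold change -2.00, adjusted p = 3.43e-13, edgeR). In the p53 list 15 of 32 rose (46.9%, against 33.0% of all genes) and 12 fell (37.5%, against 37.4%), with a median of 0.02. Cdkn1a, its most abundant member and the classical p53 target p21, had 423, 440.1 and 372 normalized CPM with DMSO and 405, 414 and 361 with CMA (log2 fold change -0.07, adjusted p = 0.433, edgeR).

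Among the 12 largest rises outside the interferon list were genes best known from other cell types. Scin, an actin-severing protein, had 1.13, 1.41 and 1.63 normalized CPM with DMSO and 145, 145 and 155 with CMA (log2 fold change 6.70, standard error 0.0834, adjusted p = 1.02e-18, edgeR). Irg1, the enzyme that makes itaconate in macrophages, rose from 2.11, 2.05 and 1.93 to 119, 117 and 131 (log2 fold change 5.92, adjusted p = 1.58e-17, edgeR). Slc1a1, a glutamate and cysteine carrier, rose from 0.692, 0.436 and 0.756 to 38.1, 37.2 and 40.5 (log2 fold change 5.91, adjusted p = 2.25e-15, edgeR). Aire, the thymic regulator of self-antigens, went from 0.109, 0.134 and 0.0244 to 24.9, 24.4 and 22.4. The tachykinin receptor Tacr2 went from 0.109, 0.201 and 0.122 to 18.9, 18.4 and 18.5. The keratin Krt16 went from 0.0364, 0.235 and 0.0488 to 15.1, 14.8 and 17.1. These 3 had few reads in the DMSO libraries, down to a single read in some. The 12 also held Tnfsf4, Inhbb, I830012O16Rik, Gm5538, Gm11435 and BC094916. I830012O16Rik is an older name of the interferon-inducible Ifit3b, so the list did not capture every interferon gene. By absolute gain, Ccr7, Npc2, Pabpc1 and Ccnd2 were followed by Serpinb6b, an intracellular protease inhibitor that went from 314, 299.8 and 295 to 1288, 1276 and 1238 (log2 fold change 2.07, adjusted p = 5.28e-14, edgeR). Hspa8, Clic4, Nfkb2, Lag3 and Il12rb2 completed the 10 largest gains.

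Among the 12 largest falls, Rgs16, which shortens G protein signals from chemokine receptors, was the most abundant with 136, 129 and 126 normalized CPM with DMSO and 15.9, 15.2 and 12.3 with CMA (log2 fold change -3.17, standard error 0.0813, adjusted p = 6.13e-15, edgeR). Slc9b2, a sodium-proton exchanger, fell from 37.1, 40.2 and 35.8 to 3.74, 3.46 and 2.99 (log2 fold change -3.47, adjusted p = 1.50e-15, edgeR). Car12, a carbonic anhydrase, fell from 24.1, 20.6 and 22.3 to 1.78, 1.98 and 1.48 (log2 fold change -3.67, adjusted p = 1.51e-14, edgeR). Dntt, the terminal transferase of lymphocyte precursors, fell from 25.5, 28.9 and 26.2 to 1.90, 1.67 and 1.54 (log2 fold change -3.97, adjusted p = 9.60e-15, edgeR). Spp1, which codes for osteopontin, fell from 25.4, 23.5 and 22.9 to 1.65, 1.39 and 2.11 (log2 fold change -3.80, adjusted p = 1.91e-11, edgeR). Bdh2, Serpinb5, Fam20a, Armcx1, Akr1c18, Angptl2 and Armcx4 made up the rest, with log2 fold changes of -4.05 to -3.16. By absolute loss the order was different and held many genes of translation and glycolysis, with Eef1a1, Eef2, Rpl4, Npm1, Pkm, Rpl3, Ldha, Actb, Rpsa and Slc2a3 as the 10 genes.

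The same contrast in T cells without functional STING shows which changes CMA also made there. From the 1st to the 99th percentile of all genes, log2 fold changes ran from -2.44 to 3.84 in WT and from -0.76 to 0.652 in STINGgt/gt T cells. The CMA effect was more positive in WT than in STINGgt/gt T cells for 3759 genes (27.2%) and more negative for 4364 (31.6%), by edgeR's test of the difference. For ribosome biogenesis and Myc the effect was more negative in WT for 43 of 50 and more positive for 4, and the median log2 fold change in STINGgt/gt was 0.09 against -0.77. For nucleotide synthesis these values were 26 and 1 of 27, with medians of 0.04 and -0.77. For NF-κB genes the effect was more positive in WT for 20 of 29 (medians 0.06 and 0.57), and for homing genes for 15 of 28 (-0.03 and 0.65). Rrp12 stood at 62.2, 60.3 and 63.2 under DMSO and 66.1, 62.5 and 64.5 under CMA in STINGgt/gt T cells (adjusted p of the difference = 2.61e-12, edgeR). Ccr7 was at 568, 576 and 608 under DMSO and 645, 629 and 628 under CMA (adjusted p of the difference = 1.44e-12, edgeR). Slc7a5 there was 516, 511 and 499 under DMSO and 523, 476 and 485 under CMA, with overlapping groups (adjusted p of the difference = 1.59e-10, edgeR). Some changes were shared by the genotypes in direction. Gzmb, the granzyme B gene, fell in WT from 1893, 2084 and 2345 to 1415, 1462 and 1512 (log2 fold change -0.53, adjusted p = 8.98e-07, edgeR). In STINGgt/gt it had 857, 838 and 881 under DMSO and 676, 639.5 and 631 under CMA (log2 fold change -0.40, adjusted p = 0.00317, edgeR). The difference was not called (adjusted p = 0.236, edgeR). Il2 also rose in STINGgt/gt (log2 fold change 0.82, adjusted p = 0.00243, edgeR), by less than in WT (adjusted p of the difference = 2.20e-07, edgeR). Actb fell in WT (log2 fold change -0.22, adjusted p = 0.000683, edgeR). In STINGgt/gt its fall was not called (log2 fold change -0.11, adjusted p = 0.335, edgeR), nor was the difference (adjusted p = 0.185, edgeR). Dntt (log2 fold change -0.71, adjusted p = 0.000581, edgeR) and Pcx (log2 fold change -0.31, adjusted p = 0.0176, edgeR) also fell in STINGgt/gt. Armcx4 (log2 fold change -0.36, adjusted p = 0.00878, edgeR) and Akr1c18 (log2 fold change -0.52, adjusted p = 0.0427, edgeR) did too. These falls were smaller than in WT. Rgs16, Slc9b2, Car12 and Spp1 were not called there. Egr2 fell in WT and rose in STINGgt/gt (log2 fold change 0.40, adjusted p = 0.00271, edgeR), while Il7r rose in WT and fell in STINGgt/gt (log2 fold change -0.42, adjusted p = 0.00271, edgeR).

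**Figure D4:**
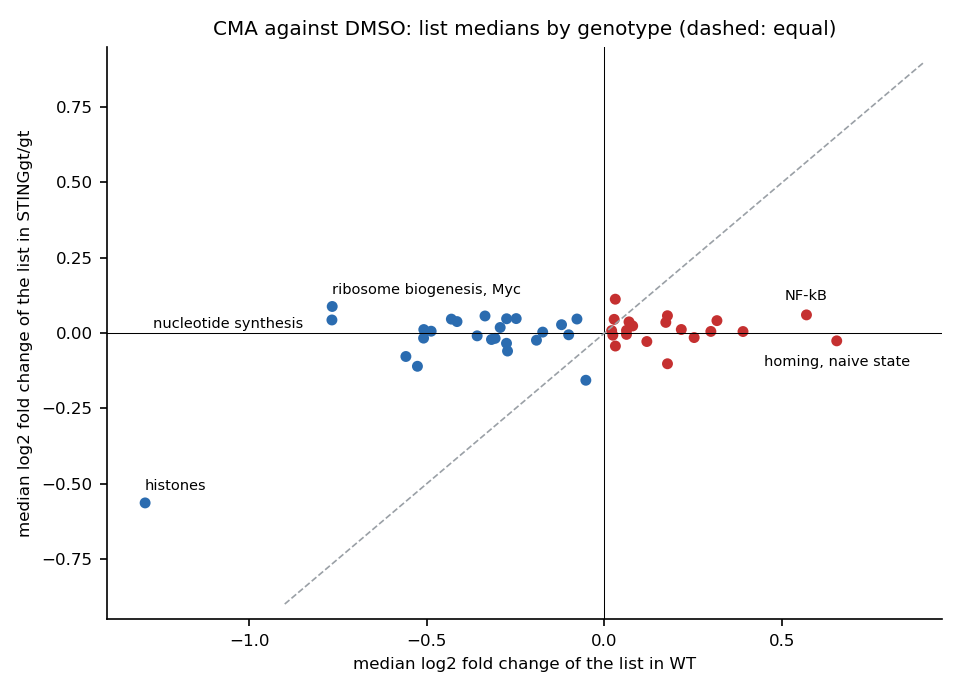
Median log2 fold change of CMA against DMSO for 45 gene lists in WT (horizontal axis) and STINGgt/gt T cells (vertical axis); each point is a list, blue with a negative and red with a positive WT median, and the dashed line marks equal medians. The interferon list, at 1.57 in WT, is left out. Along the vertical axis the lists lie between -0.16 and 0.11 except the sparsely read histones at -0.56, while along the horizontal axis they run from -1.29 to 0.65.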

How the data were processed

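RNA-seq was done on cultured T cells, from WT or STINGgt/gt mice, with DMSO or 125 μg/ml CMA for 16 h, with 3 biological replicates for each of the 4 groups, and the 6 WT libraries are described here. The authors deposited raw counts per Ensembl gene for 38924 genes, and a table of log2 values that they had normalized between samples for 11921 genes. The deposited log2 values were used only for gene names, positions and annotation classes, and 25762 further genes were named from the GENCODE reference. Each log2 value equals that of the count plus 0.5 on a scale set per library, by the deposited files themselves. The submitters' processing notes list cutadapt 1.3, STAR 2.4.0f1, HTSeq 0.6.1, RSEM 1.2.16 and GRCm38. The strand setting of the counting is not given in the sources used here. Entries for reads outside genes were left out of library sizes.

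Counts as deposited were tested with edgeR 4.0.16 (R 4.3.3, limma 3.58.1) by the quasi-likelihood test, with TMM scaling, filterByExpr and 1 model of all 12 libraries in 4 groups, and p-values were adjusted by Benjamini-Hochberg over all 13811 genes with a threshold of 0.05. Precision rests on 3 libraries per group and on 27414450 to 41791903 reads per WT library, and standard errors and p-values measure the spread between libraries. Chi-square statistics per degree of freedom were 9.98 to 29.9 between DMSO replicates and 2.63 to 4.44 between CMA replicates, so that no library was counted as a copy of another. Members and lists (46 gene lists and 5 marker lists) were chosen with earlier results of these data known. By rule, the genes named were the 12 largest rises and falls and the 10 largest gains and losses of CPM outside the interferon list, among called genes with a mean count of at least 100 and groups that did not overlap, and in each list the most abundant member, the largest rise, the largest fall and the smallest adjusted p. These genes were named after their values were seen: Apaf1, Asns, Atf5, Batf3, Bbc3, Bcl2l1, Bcl2l11, Birc2, Cad, Ccl22, Ccl25, Ccl27a, Ccl3, Ccl4, Ccl6, Cd40lg, Cd70, Cd80, Cdk4, Cdkn2c, Chuk, Ctps, Cxcl16, Cxcr3, Dhodh, Dnmt3b, Dusp6, Elavl1, Fads2, Fos, Fosl2, Gart, Il18r1, Imp4, Itga4, Jund, Kdm6b, Max, Mki67, Mrps6, Mxd3, Mxd4, Mxi1, Myc, Mycn, Nfkbia, Pdcd1, Phgdh, Ppp1r15a, Rb1, Rbbp7, Relb, Slc38a2, Srebf1, Srgn, Tcf7, Xbp1, Zfp36 and mt-Nd4. Some genes that the rule or the lists hold are not reported here. List medians per library used CPM plus 0.5. Alternatives were library-size scaling, DESeq2 1.42.0, limma-voom, other count filters, WT libraries alone, a replicate block, a threshold of 0.01 and leaving out each WT library. Promoters were taken from RefSeq. Their orientation was checked against the annotation. The last bases of the reference sequence, past the start, lay in an annotated transcript of the gene for 85.6% of 12378 promoters. For the others the start and orientation were not borne out by this check.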

Additional observations from a re-analysis of the deposited data

Results flagged for a closer look

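By edgeR's test of the difference between genotypes, 3759 genes had a more positive and 4364 genes a more negative CMA effect in WT than in STINGgt/gt T cells. Of the 176 genes named by rule, 158 were among them. The exceptions include Gzmb, which fell in both genotypes, and Actb.

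Reads outside annotated genes, which enter no comparison of genes, made up 6.793% of all entries in the lowest WT CMA library and 5.467% in the highest WT DMSO library. Their share was higher with CMA in 3 of 3 libraries, and their origin was not tested. Groups of 3 libraries were too small for the search for single outlying samples.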

How the results depend on the processing

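The numbers of genes higher and lower with CMA stayed within 1.5 times their main values under every alternative, with 3957 to 5014 higher and 4343 to 5408 lower, and so did the numbers with a different effect between genotypes (2996 to 3985 more positive and 3551 to 4574 more negative in WT). Leaving out one WT library gave 4323 to 4700 higher and 4849 to 5240 lower genes. Library-size scaling moved the median log2 fold change of all genes from -0.0401 to -0.0643. Same-numbered WT libraries deviated together only weakly (correlations of 0.00195, 0.104 and 0.132). DMSO replicates 2 and 3 correlated best with the CMA library of their own number, and DMSO replicate 1 did not. The deposited sample names of same-numbered WT libraries share their first digit, and the labels do not say what it stands for. Pairing is therefore possible but not stated, and the main test did not take the replicate numbers as pairs. The replicate block gave 4674 higher and 5276 lower genes, and 3951 and 4493 had a more positive or negative effect in WT. Of the list counts 1257 kept within 1.5 times the main count and 31 did not. Histones lower fell from 16 to 2 and cytokines lower from 6 to 3 when 10 counts were required in every library, which leaves fewer genes tested. DNA replication genes higher rose from 7 to 13 with DESeq2 and to 14 with that filter, and the cause was not tested. List medians were less steady: 449 stayed within their spread between libraries and 149 did not. Of these, 33 moved with that filter and 23 with WT libraries alone. The histone median ran from -1.45 to -0.28 and that of granule genes from -0.95 to -0.50. The median of ribosome biogenesis and Myc ran from -0.79 to -0.70, and that of NF-κB genes from 0.54 to 0.68. For 3 named genes that were not called the sign changed, near 0 on the log2 scale. Ddit4 (-0.03) had 0.004414 with DESeq2, 0.01703 with that filter, 0.005969 with WT libraries alone, and from -0.06856 to 0.02193 with one library left out. Nfkb1 had 0.001305 with that filter. Junb (0.01) had -0.01467 with library-size scaling, -0.03796 without WT DMSO replicate 3, and from -0.06199 to 0.06968 over the libraries left out. Calls were lost in some alternatives for Topbp1, Mrpl45, Psma6 and Tnfrsf9, in 23 pairs of a gene and an alternative. In 25 such pairs a named gene without a call in the main fit was called, so some missing calls also depend on the fit. Genes with a few reads per library limit what can be read from folds.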

Other observations

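Some further gene groups are described here, to be read against the 33.0% higher and 37.4% lower of all genes tested. Of 24 dual-specificity phosphatases, Sprouty and Spred genes, brakes on MAP kinase signals, 8 were higher and 12 lower. These are 33.3% and 50.0%, the first near the share of all genes (median log2 fold change -0.25, against -0.04 over all genes). Dusp1 rose from 17.5, 17.9 and 16.4 to 64.1, 61.7 and 64.9 normalized CPM (log2 fold change 1.89, adjusted p = 1.11e-14, edgeR), its exons overlapping a counted neighbour, while Dusp6, which acts on ERK, fell from 40.6, 37.3 and 38.4 to 16.1, 14.3 and 16.5 (log2 fold change -1.31, adjusted p = 1.98e-11, edgeR). Of 14 RNA-binding proteins that control cytokine mRNA 8 rose, and Hnrnpd, Elavl1 and Zfp36 fell. Exons of Hnrnpd, Elavl1, Rbbp7 and Il12rb2 also overlap a counted neighbour on the opposite strand. Zc3h12c, of the Regnase family, rose from 0.801, 0.637 and 0.707 to 2.90, 2.25 and 2.30 (log2 fold change 1.80, adjusted p = 7.13e-08, edgeR). Of 24 DNA methylation and Polycomb genes 11 were higher and 5 lower (Tet1, Kdm6b, Dnmt3b, Rbbp7 and Dnmt1), 8 lower without WT DMSO replicate 2. Their shares were 45.8% and 20.8%, with a median log2 fold change of 0.03. Tet1, which oxidises methylcytosine, fell from 19.6, 14.1 and 20.9 to 4.32, 5.77 and 5.55 (log2 fold change -1.82, adjusted p = 6.14e-09, edgeR), and Kdm2b rose from 128, 115 and 128 to 410.5, 405 and 412 (log2 fold change 1.73, adjusted p = 1.69e-14, edgeR), also with an overlapping neighbour. Hypoxia-linked genes were near the background of all genes tested, with 7 higher and 7 lower of 19.

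Of 24 cytokine receptors 10 were higher and 7 lower. Il10ra rose from 130.1, 139 and 125.4 to 293, 304 and 300.5 (log2 fold change 1.19, adjusted p = 2.00e-11, edgeR) and Il12rb2 from 739, 705 and 804 to 1387, 1397 and 1414 (log2 fold change 0.90, adjusted p = 6.72e-11, edgeR), while both chains of the IL-18 receptor fell, Il18r1 from 15.4, 12.9 and 14.99 to 5.91, 4.94 and 5.36 (log2 fold change -1.42, adjusted p = 6.63e-10, edgeR) and Il18rap from 6.37, 5.57 and 7.41 to 2.32, 2.28 and 2.33 (log2 fold change -1.49, adjusted p = 2.11e-08, edgeR). Of 296 genes named Zfp, most of them zinc finger repressors, 110 were higher and 67 lower (median 0.08). By annotation class, antisense genes were higher in 95 and lower in 30 of 226 cases and lincRNA genes in 94 and 54 of 248, against 4158 and 4937 of 12335 protein-coding genes. Antisense counts cannot be told apart from reads of the gene they face where strand was not used. Genes with snoRNA annotation were higher in 4 and lower in 14 of 91 cases. T cell receptor variable genes were higher in 5 and lower in 13 of 82 cases, and immunoglobulin variable genes in 44 and 12 of 119.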
